A study of Mus musculus with 9 samples.

Results

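Kidney expression in db/db mice treated with Tang-shen Formula (TSF) was compared with expression in lean db/m mice. The comparison used the 3 arrays labelled for each of these groups, 6 of the 9 arrays in the series, and asked what still differed from the lean control after treatment across 17740 genes. All mice were males of the C57BLKS/J strain aged 20 weeks. The db/m mice carry 1 mutant copy of the leptin receptor gene and stay lean, and the labels give no treatment for them. The db/db+TSF mice carry the mutation on both copies and were gavaged with TSF, a Chinese herbal medicine, over 12 weeks at a dose of 2.4 g/kg/day. The other 3 arrays came from db/db mice given saline, and their values stand beside the comparison. There was no group of db/m mice given TSF, so the effects of genotype, diabetes and treatment cannot be told apart in it. The labels describe 9 mice per db/db group and separate biological replicates; how the arrayed mice were chosen, and what the formula contains, is not given in the sources used here.

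Leptin acts through its receptor in the hypothalamus to curb feeding, and mice without a working receptor become obese, insulin resistant and diabetic. The renal cortex is made up largely of proximal tubule, which takes back filtered glucose, amino acids and phosphate and secretes organic ions and drug conjugates. Many of its transporters and steroid and drug enzymes differ between male and female mice, because androgens raise or lower their transcripts. The distal segments handle calcium and sodium under hormonal control, and many kidney transcripts follow the circadian clock and glucocorticoids.

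The values are array intensities on the log2(intensity + 1) scale, and a difference is a log2 fold change on that scale. Median intensity per array ranged from 10.3 to 11.2. Slc34a1, the phosphate carrier that marks cortical proximal tubule, measured 12.12 to 12.27 on all 9 arrays, while the pancreas gene Cpa1, at 3.08 to 3.44, and the fat gene Adipoq, at 2.73 to 3.24, were near the bottom of the scale. The mean of 12 fat genes, Adipoq among them, ran from 4.56 to 5.36 across the db/m arrays. It was 4.54 to 4.58 in saline db/db and 4.51 to 4.62 in db/db+TSF. Why the db/m arrays spread more widely in this list was not tested. The levels of 43 genes in db/db+TSF replicate 2 lay more than 1 log2 unit from their group mean, 34 of them below it. On the other 8 arrays this held for 7 to 28 genes. What sets replicate 2 apart was not tested, and values without it are given beside some of the genes it moves. Lepr itself was dim: it measured 4.07, 3.71 and 3.73 in db/m and 3.72, 3.09 and 3.25 in db/db+TSF, and the groups did not pass as different (adjusted p = 0.242).

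In db/db+TSF, 556 of 17740 genes (3.13%) passed the threshold of a limma adjusted p of 0.05 against db/m. Of these, 216 (1.22%) rose and 340 (1.92%) fell, the shares beside which all list counts below are to be read. Most differences were modest: 451 of the 556 were under 2-fold, 30 genes (0.169%) rose and 75 (0.423%) fell by at least 2-fold, and 18 changed at least 4-fold. All 556 had every treated array on one side of every db/m array, as did 22.1% of the 17740; 3050 genes (17.2%) had an unadjusted p under 0.05. The median difference was 0.63 among the genes that rose, -0.65 among those that fell and -2e-04 over all genes. Calls were more frequent among bright genes, from 0.722% of the 4435 dimmest genes to 5.19% of the 4435 brightest. The count rests on a few arrays: leaving out db/m replicate 1 gave 220 and replicate 2 gave 370, while leaving out db/db+TSF replicate 2 gave 224 and replicate 3 gave 213. With each of the 9 arrays left out in turn (leave-one-out fits), 154 genes passed every time. The same model called 187 genes (1.05%) in saline db/db against db/m; both comparisons use the same db/m arrays.

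**Figure D1:**
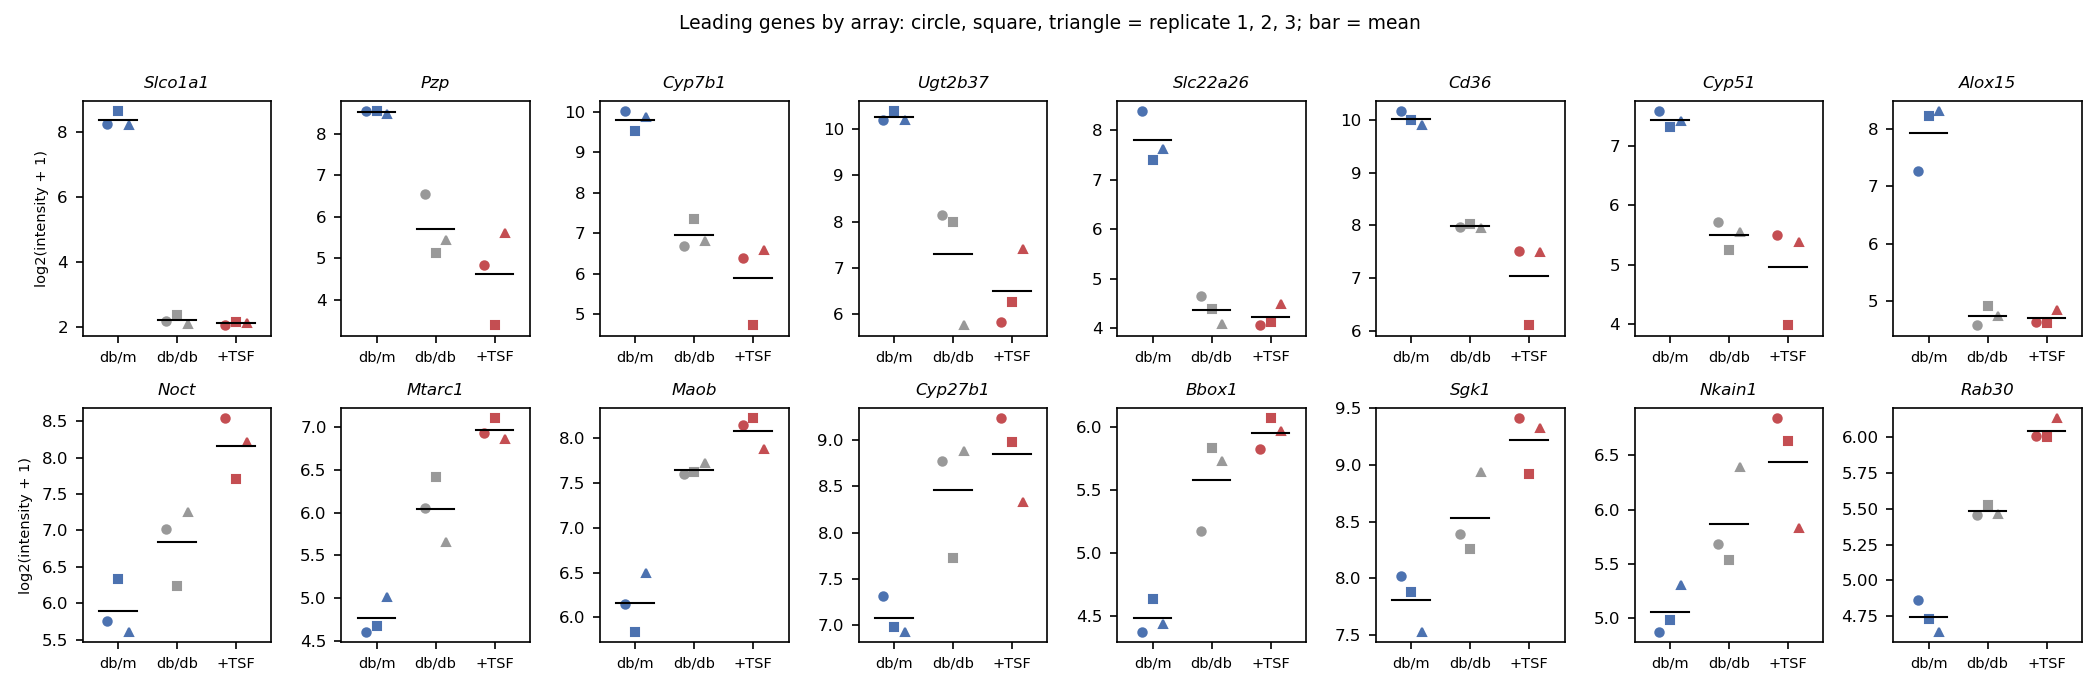
Intensity of 16 leading genes on each of the 9 arrays, on the log2(intensity + 1) scale, with a separate vertical scale in each panel. Circles, squares and triangles are replicates 1, 2 and 3 of db/m, db/db and db/db+TSF, and bars are group means; in each panel the db/m and db/db+TSF arrays do not overlap, and db/db+TSF replicate 2 is the lowest of its group for Pzp, Cyp7b1, Cd36 and Cyp51.

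Genes that androgens raise in the male mouse kidney were lower in db/db+TSF. Of 21 such genes tested, 12 fell and the other 9 did not pass, 20 lay below 0 and the median difference was -1.06, against -2e-04 over all genes. With each array left out in turn, 10 to 13 of the 21 fell. The median in saline db/db against db/m was -0.65. The organic anion transporter Slco1a1 changed most of all genes. It measured 8.24, 8.62 and 8.22 in db/m, 2.06, 2.14 and 2.12 in db/db+TSF and 2.17, 2.36 and 2.10 in saline db/db. The fall from db/m to db/db+TSF was 6.25 (SE 0.12, adjusted p = 2.66e-10), and because the treated level lies near the bottom of the scale its fitted 76.4-fold size depends on that floor.

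Cyp7b1, a steroid and oxysterol hydroxylase, measured 10.01, 9.53 and 9.87 in db/m and 6.40, 4.74 and 6.58 in db/db+TSF, a 14.8-fold fall (-3.89, SE 0.39, adjusted p = 0.000618). Saline db/db arrays had 6.70, 7.36 and 6.82, so that every db/db array of either treatment was below every db/m array. Without db/db+TSF replicate 2, the lowest array, the Cyp7b1 difference was -3.31. Akr1c14, an aldo-keto reductase of steroid metabolism, went from 8.50, 8.33 and 7.99 to 5.26, 3.96 and 5.95 (-3.22, SE 0.41, adjusted p = 0.00265), with the same array lowest and a difference of -2.67 without it. Ugt2b37, which joins glucuronic acid to its substrates, fell from 10.19, 10.38 and 10.20 to 5.83, 6.27 and 7.40 (-3.76, SE 0.55, adjusted p = 0.00557). Here replicate 1 was lowest, and the saline db/db arrays were spread more widely, at 8.15, 7.99 and 5.77.

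Smaller falls in the same list were those of Cyp2j13 (-1.75), a cytochrome P450, Slc22a28 (-1.72), an organic anion transporter, Timd2 (-1.08), a receptor for ferritin, the dipeptidase Cndp2 (-1.06), Cyp4a12a (-1.06), a fatty acid hydroxylase, and the alcohol dehydrogenase Adh1 (-0.57). Kap, the androgen-regulated protein for which the male kidney is known, fell from 11.70, 11.71 and 11.87 to 10.65, 9.34 and 10.92 (-1.45, SE 0.31, adjusted p = 0.0306). Kap did not pass without db/m replicate 1, 2 or 3 (adjusted p up to 0.0923), and the difference was -0.97 without db/db+TSF replicate 2. Cyp4a12a did not pass in 4 of 9 leave-one-out fits (adjusted p up to 0.067 without db/m replicate 1). The ornithine decarboxylase Odc1, a classic androgen target, measured 8.21 to 8.52 in db/m and 7.78 to 8.04 in db/db+TSF without passing (adjusted p = 0.0966).

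Genes known to be higher in the female kidney lay on the opposite side. Of 6 tested, 4 rose: Abcc4 (1.12) and Abcb1a (0.51), which pump drugs and conjugates out of cells, the fatty acid hydroxylase Cyp4a14 (0.99) and the glutathione transferase Gsta4 (0.86). Cyp4a14 measured 10.02, 10.29 and 10.48 in db/m and 11.29, 11.27 and 11.21 in db/db+TSF (SE 0.13, adjusted p = 0.0033). Abcb1a measured 5.18, 5.08 and 4.91 in db/m, 5.57, 5.55 and 5.58 in db/db+TSF and 5.83, 5.97 and 5.97 in saline db/db. Abcb1a did not pass without db/db+TSF replicate 2 or 3 (adjusted p up to 0.0698). The amino acid transporter gene Slc7a12, also of this list, did not pass: it measured 10.24, 7.09 and 10.22 in db/db+TSF against 9.30, 8.95 and 9.50 in db/m, and without the low replicate 2 a total of 5 of the 6 rose.

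Among 26 genes for transport of organic anions and cations, 7 fell, beside 1.92% of all genes, and 19 did not pass, with a median of -0.33. Besides Slco1a1 and Slc22a28 these were members of the Slc22 family, which take up drugs, urate and signalling anions. Slc22a26 measured 8.39, 7.40 and 7.61 in db/m and 4.07, 4.12 and 4.48 in db/db+TSF, an 11.9-fold fall (-3.58, SE 0.23, adjusted p = 5.05e-05), with saline db/db arrays at 4.66, 4.39 and 4.08. Slc22a7, another organic anion carrier, fell from 8.15, 7.44 and 7.01 to 4.81, 3.11 and 4.60 (-3.36, SE 0.58, adjusted p = 0.0126). Without db/m replicate 1 it did not pass (adjusted p = 0.0557), and the difference was -2.83 without db/db+TSF replicate 2. The urate exchanger Slc22a12 fell from 10.51, 10.62 and 10.76 to 10.01, 9.67 and 9.83 (-0.80), the cation transporter Slc22a2 by 0.52 and Slc22a22, a prostanoid carrier, by 0.67. The efflux list of 10 ABC pumps, which overlaps the female list, had the rises of Abcc4 and Abcb1a.

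The promoter of Slc22a26 is shown for its motifs and because the gene carries 1 of the largest falls in the androgen list. The sequence around its start holds 2 copies of AGAACA, the single arm of the steroid receptor element. The stretch lies at chr19:7802663-7802727 on the minus strand (GRCm38.p6, RefSeq), and the capitals mark AGAACA read on the other strand. The copies begin 31 and 3 bases before the start, and the nearer copy runs across it.
Slc22a26: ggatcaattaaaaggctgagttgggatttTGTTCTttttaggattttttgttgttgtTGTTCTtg
On either strand AGAACA occurred in 15.6% of 334 windows of genes that fell, 21.5% of 209 windows of genes that rose and 14.3% of 17123 windows of all tested genes, each window running from 250 bases before to 50 after a RefSeq start. The motif is short, and a match is not a measured binding site.

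Of 24 steroid enzymes, 6 fell and 3 rose, beside 1.92% and 1.22% of all genes. Hsd17b2, which inactivates estradiol and testosterone, measured 7.96, 7.59 and 7.90 in db/m and 6.13, 4.40 and 5.90 in db/db+TSF (-2.34, SE 0.34, adjusted p = 0.00572). Replicate 2 was again the lowest treated array, and the difference was -1.81 without it. Akr1c18, which inactivates progesterone, fell by 2.38 from 7.40, 5.60 and 5.57 to 4.44, 3.32 and 3.67, and did not pass without db/db+TSF replicate 2 or 3 (adjusted p up to 0.0609). Hsd17b11 fell by 0.78 and Hsd11b1, which regenerates active glucocorticoid, by 0.47. On the higher side were Hsd3b3 (1.07), Cyp27a1 (0.44) and Cyp27b1. The estrogen receptor gene Esr1 fell from 7.42, 7.13 and 7.13 to 6.30, 5.62 and 6.53 (-1.08, SE 0.20, adjusted p = 0.0168), a call lost without db/m replicate 1 (adjusted p = 0.0706).

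Drug- and amine-metabolising enzymes moved in both directions: of 51 tested, 12 rose and 5 fell, beside 1.22% and 1.92% of all genes, with a median of -0.02. Mtarc1, a molybdenum enzyme of the mitochondrial outer membrane that reduces N-hydroxylated compounds, rose 4.6-fold from 4.61, 4.68 and 5.01 to 6.93, 7.10 and 6.87 (2.20, SE 0.18, adjusted p = 0.000146). Saline db/db lay between, at 6.06, 6.42 and 5.65. Its paralog Mtarc2 rose by 0.42. The monoamine oxidase Maob rose from 6.15, 5.84 and 6.50 to 8.15, 8.23 and 7.88 (1.92, SE 0.15, adjusted p = 0.000146), and Maoa by 0.80. Mtarc1 and Maob passed in all 9 leave-one-out fits. Over the list 9 to 12 genes rose and 3 to 6 fell in those fits, with 3 falls without db/m replicate 1, db/m replicate 3 or db/db+TSF replicate 2. Among conjugating and oxidising enzymes, Ugt2b34 (1.0), Ephx1 (0.93), Cyp2d22 (0.82), Cyp2d26 (0.81), Gsta3 (0.63) and Mgst1 (0.49) rose. Fmo5, a flavin monooxygenase, fell from 8.28, 8.57 and 8.71 to 6.98, 6.71 and 7.36 (-1.50), and Cyp2a4 fell by 1.11.

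Lipid genes changed at a few points. Cd36, the fatty acid translocase, fell 7.92-fold, from 9.91 to 10.16 across the db/m arrays to 7.52, 6.11 and 7.49 in db/db+TSF (-2.99, SE 0.29, adjusted p = 0.000574). The saline db/db arrays, at 7.98, 8.03 and 7.96, were all above the treated ones, and the difference from db/m was -2.52 without db/db+TSF replicate 2. Cd36 was the single member past the threshold among 46 genes of fatty acid uptake and oxidation, whose median was -0.01. Bbox1, which completes carnitine synthesis, rose from 4.38, 4.64 and 4.44 to 5.83, 6.07 and 5.97 (1.47, SE 0.16, adjusted p = 0.000972). Of 22 fatty acid synthesis and elongation genes, Me1 (-0.73), which supplies NADPH, and the desaturase Fads1 (-0.54) fell, while Elovl6 (0.70), Acsl4 (0.66) and Elovl2 (0.55) rose. Both falls passed in all 9 leave-one-out fits, but none of the 22 genes rose without db/db+TSF replicate 2, and 1 rose without db/m replicate 1, db/db+TSF replicate 1 or db/db+TSF replicate 3. The adjusted p reached 0.052 for Elovl6, 0.0617 for Acsl4 and 0.154 for Elovl2.

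Alox15, a lipoxygenase that makes hydroxylated arachidonate and linoleate products, fell 9.33-fold, from 7.26, 8.22 and 8.30 to 4.64, 4.63 and 4.85 (-3.22, SE 0.23, adjusted p = 6.59e-05). Saline db/db had 4.59, 4.91 and 4.74, in the range of the treated arrays. Ltc4s, the leukotriene C4 synthase, rose by 0.98, and together with Cyp4a12a these were the 3 of 21 eicosanoid genes past the threshold. Cyp51, the sterol demethylase of cholesterol synthesis, fell from 7.59, 7.33 and 7.42 to 5.49, 3.98 and 5.39 (-2.49, SE 0.32, adjusted p = 0.00265), and by 2.00 without replicate 2 of the treated group. Of 19 cholesterol synthesis genes only Cyp51 and Sqle (-0.81) passed. Sqle did not pass in 5 of 9 leave-one-out fits (adjusted p up to 0.116 without db/db+TSF replicate 2), and Hmgcs1, an early enzyme of the pathway, measured 9.19 to 9.62 in db/m and 9.06 to 9.69 in db/db+TSF. Of 26 genes of metabolic nuclear receptors and their targets 4 rose and 1, Esr1 (-1.08), fell. The rises were Abca1 (0.96), which exports cholesterol, Ppara (0.72), the receptor that governs fatty acid oxidation, Mylip (0.61), which degrades lipoprotein receptors, and Apoe (0.61). Without db/db+TSF replicate 2 none of these 4 passed, and without db/m replicate 1 or db/db+TSF replicate 3 the list had 1 rise. Without db/db+TSF replicate 2 the adjusted p was 0.0695 for Abca1 and 0.0868 for Mylip.

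Amino acid enzymes changed in both directions: of 38 tested, 4 rose and 5 fell, beside 1.22% and 1.92% of all genes. Gldc, the decarboxylase of the glycine cleavage system, rose from 8.59, 9.45 and 9.60 to 10.47, 10.49 and 10.44 (1.25, SE 0.21, adjusted p = 0.011), whereas Amt, another subunit of the same system, fell by 0.47. Kynu (0.93), of tryptophan breakdown, Prodh2 (0.85), which oxidises hydroxyproline, and Oat (0.48), the ornithine aminotransferase, also rose. Ldc1, a decarboxylase of leucine, fell from 6.72, 6.62 and 6.50 to 4.46, 3.98 and 4.12 (-2.43, SE 0.15, adjusted p = 5.05e-05). Cbs (-0.92), of homocysteine removal, Acmsd (-0.54) and Agmat (-0.52) fell too. In leave-one-out fits 3 or 4 of the 38 rose and 1 to 5 fell, with 1 fall without db/m replicate 2 or db/db+TSF replicate 3.

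The amino acid carrier Slc7a13, found in the last part of the proximal tubule, measured 10.85, 10.80 and 10.56 in db/m and 8.54, 6.27 and 9.29 in db/db+TSF (-2.70, SE 0.58, adjusted p = 0.0328). Its treated arrays were the most spread of the leading genes, and the Slc7a13 difference was -1.82 without db/db+TSF replicate 2. The fall did not pass in 4 of 9 leave-one-out fits, those without any one of the db/m arrays or treated replicate 1 (adjusted p up to 0.101). The peptide transporter Slc15a1 rose from 3.89, 3.96 and 4.11 to 4.94, 4.96 and 4.73 (0.89). On the brush border, Xpnpep2, an aminopeptidase, rose by 1.18, and the angiotensin-converting enzyme Ace fell from 9.92, 9.53 and 10.05 to 9.24, 7.66 and 8.76 (-1.28, SE 0.31, adjusted p = 0.0482). The Ace call was lost in 7 of 9 leave-one-out fits (adjusted p up to 0.141 without db/m replicate 3). Without db/db+TSF replicate 2 the Ace difference was -0.84. Among 22 proximal tubule identity markers Slc22a7, Kap and Slc22a12 fell, the median was 0.05, and the endocytic receptor Lrp2 measured 10.99 to 11.29 in db/m and 11.01 to 11.09 in db/db+TSF.

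Of glucose pathway genes, 3 of 24 in glycolysis and glucose transport and 1 of 12 in gluconeogenesis rose, beside 1.22% of all genes. Of 24 genes of glycolysis and glucose transport, Pdk1 (0.96), the kinase that restrains pyruvate oxidation, the pyruvate kinase Pklr (0.68) and the insulin-responsive transporter Slc2a4 (0.51) rose, and the median was 0.14. Pdk1 measured 6.06, 6.18 and 5.81 in db/m and 7.04, 6.92 and 6.97 in db/db+TSF, with saline db/db at 6.92, 6.79 and 7.31. All 12 gluconeogenesis genes lay above 0 with a median of 0.13, and Gldc, also on this list, was the one that passed. Unadjusted limma p was under 0.05 for 9 of the 24 and 4 of the 12, all higher, beside 17.2% of all genes in either direction. Pklr did not pass in 3 and Slc2a4 in 5 of the 9 leave-one-out fits (adjusted p up to 0.0752 and 0.119). Limma called 0 of 48 oxidative phosphorylation genes, 7 had an unadjusted p under 0.05, all higher, the test without moderation also called 0, and the median was 0.07.

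Distal tubule markers that rose included genes of calcium transport. Of 21 genes that mark the loop and distal segments, 5 rose, 17 lay above 0 and the median was 0.30, with 3 to 6 rises when single arrays were left out (3 without db/m replicate 1 or db/db+TSF replicate 2). Calb1, the calcium-buffering calbindin, measured 10.04, 10.29 and 9.85 in db/m and 11.05, 11.14 and 11.10 in db/db+TSF (1.04, SE 0.14, adjusted p = 0.00336). The basolateral sodium-calcium exchanger Slc8a1 went from 6.96, 7.32 and 7.11 to 8.12, 8.69 and 7.95 (1.12, SE 0.17, adjusted p = 0.00681). The apical calcium channel Trpv5 rose by 0.85 and the parvalbumin gene Pvalb by 0.54. The other of the 5 was the kinase gene Sgk1 (1.41), which is also counted below among genes that glucocorticoids raise. Trpv5 did not pass without db/m replicate 1 (adjusted p = 0.0541). Cyp27b1, the proximal tubule enzyme that activates vitamin D, rose 3.42-fold from 7.31, 6.98 and 6.93 to 9.23, 8.98 and 8.33 (1.77, SE 0.29, adjusted p = 0.0107).

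Not all genes of these segments moved. Cyp24a1, which degrades active vitamin D, measured 8.82, 9.52 and 10.22 in db/m and 8.78, 9.44 and 9.18 in db/db+TSF (adjusted p = 0.662), and the vitamin D receptor Vdr measured 9.57 to 9.95 and 9.70 to 9.92. Umod, the most abundant gene of the thick ascending limb, measured 11.60 to 11.71 in db/m and 11.42 to 11.88 in db/db+TSF. In the collecting duct list of 22 genes the median was 0.32, 16 lay above 0 and 1 passed. By unadjusted limma p under 0.05, 13 of the 22 were higher and 1 lower, beside 17.2% of all genes in either direction. The sodium channel subunit Scnn1a, the 1 that passed, rose from 8.53, 8.48 and 8.97 to 9.48, 9.29 and 9.27 (0.69, SE 0.14, adjusted p = 0.0267), a call lost in 5 of 9 leave-one-out fits. The water channel Aqp2 measured 8.45, 8.47 and 8.85 in db/m and 8.52, 8.18 and 8.30 in db/db+TSF (adjusted p = 0.512). Limma called 0 of 14 podocyte genes, and the test without moderation called 0. Of the 14, 5 had an unadjusted limma p under 0.05, all higher, beside the same 17.2% of all genes. Nphs1, of the slit diaphragm, measured 6.23, 6.25 and 6.26 in db/m and 6.68, 6.69 and 6.51 in db/db+TSF (0.38, SE 0.10, adjusted p = 0.059). In whole cortex RNA, fewer cells of a type and less RNA per cell cannot be told apart.

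**Figure D2:**
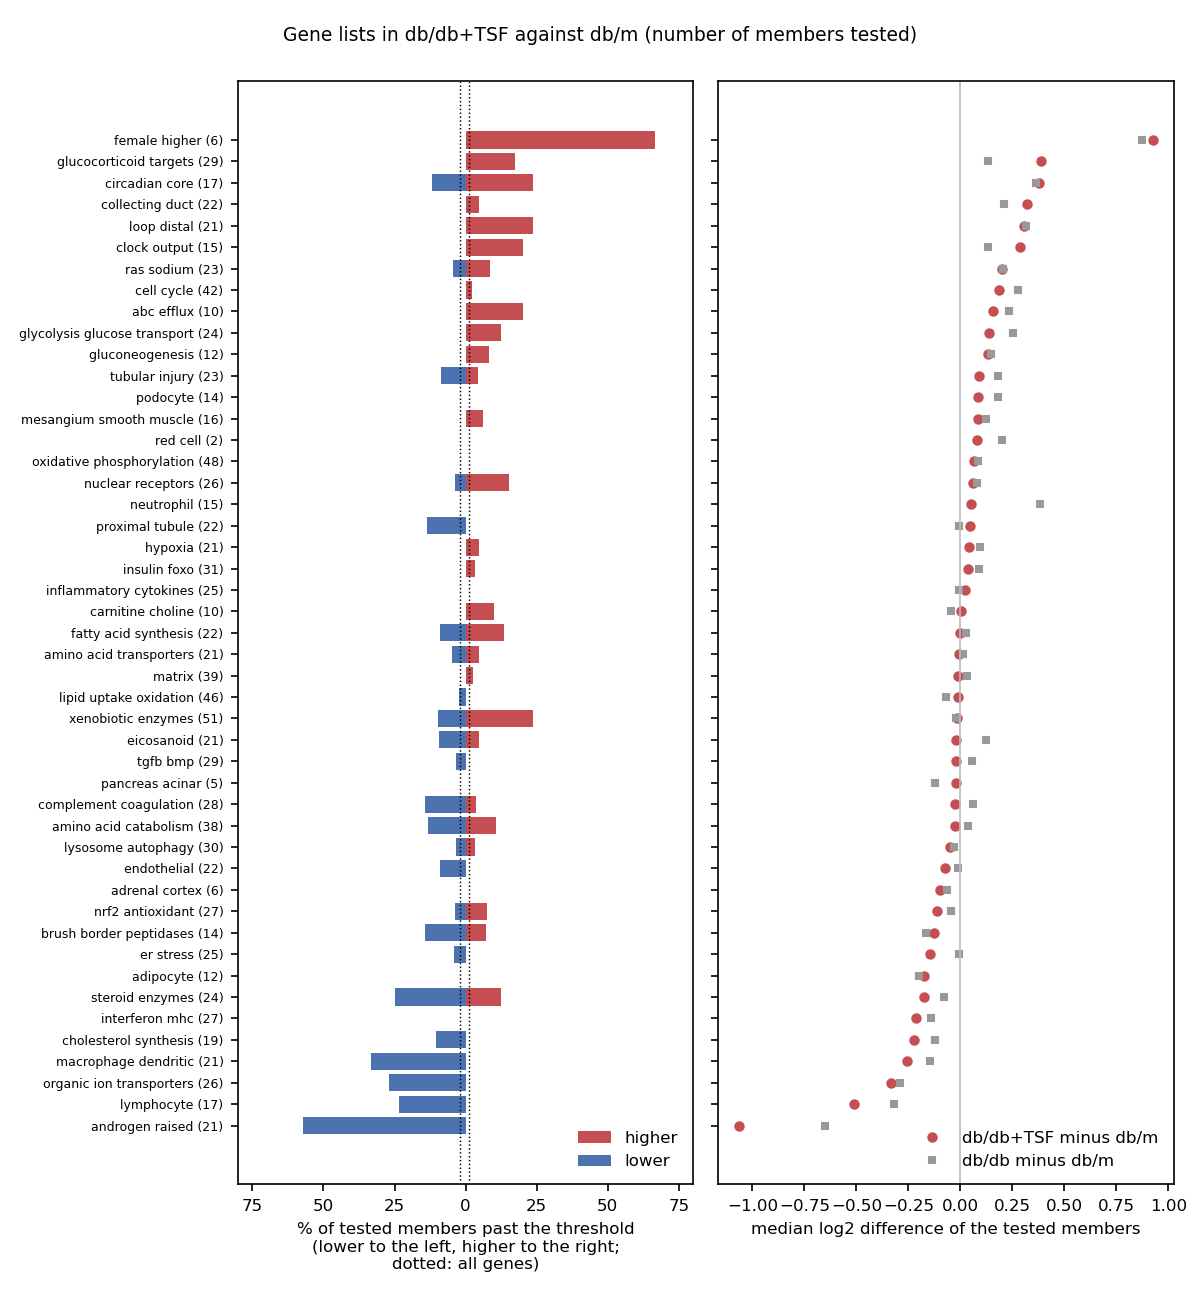
Left, percent of the tested members of each of 47 gene lists past the threshold in db/db+TSF against db/m (higher to the right, lower to the left; dotted lines mark 1.22% and 1.92% of all genes). Right, the median log2 difference of the members from db/m for db/db+TSF (circles) and for saline db/db (squares); the androgen-raised genes lie lowest at -1.06 and the female-higher genes highest at 0.93.

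Clock genes differed in level, with uneven controls. Of 17 core clock genes 4 rose and 2 fell, 14 lay above 0 and the median was 0.38. Nr1d1, the nuclear receptor REV-ERB alpha, fell from 8.71, 9.04 and 9.31 to 7.66, 7.80 and 7.83 (-1.26, SE 0.22, adjusted p = 0.0118) and passed in all 9 leave-one-out fits. Npas2, a partner of BMAL1, measured 5.73, 6.0 and 7.86 in db/m and 4.77, 4.55 and 4.32 in db/db+TSF (-1.98, SE 0.42, adjusted p = 0.0308); db/m replicate 3 stood far above the other controls, and the call was lost when any one of the treated arrays was left out (adjusted p up to 0.114). The repressor Cry1 rose from 3.52, 3.71 and 4.21 to 5.09, 4.90 and 4.84 (1.13, SE 0.20, adjusted p = 0.0142), a call lost without db/m replicate 1 (adjusted p = 0.0568). Per1 (0.85), Cry2 (0.60) and Hlf (0.42) rose as well, each lost in some such fits (adjusted p up to 0.102, 0.133 and 0.119). In db/m replicate 3 Per1 measured 7.10 against 7.82 and 7.86, Dbp 7.13 against 8.68 and 8.19, and Arntl 6.90 against 5.44 and 5.62. Without this array 2 clock genes rose, 2 fell and the median was -0.01, so the upward shift of the list rests on it; leaving out any one treated array left 1 rise and 1 fall. The hour at which tissue was collected is not given in the sources used here.

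Rhythmic output genes held the largest rise of all. Noct, which encodes a clock-driven phosphatase of NADP(H), measured 5.75, 6.33 and 5.61 in db/m, 7.02, 6.24 and 7.25 in saline db/db and 8.54, 7.71 and 8.21 in db/db+TSF. The treated arrays were above all others, and the 4.78-fold difference from db/m (2.26, SE 0.28, adjusted p = 0.00226) passed in all 9 leave-one-out fits. Wee1, the kinase that holds back mitosis, rose from 6.94, 6.95 and 6.54 to 8.0, 7.98 and 8.11 (1.22, SE 0.12, adjusted p = 0.000574), with saline db/db at 7.72, 7.51 and 7.65. The third of 15 output genes past the threshold, Tsc22d3, is also a glucocorticoid target.

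Genes that glucocorticoids raise were mostly higher. Of 29 tested, 5 rose, beside 1.22% of all genes. In this list 26 lay above 0 and the median was 0.39, against 0.14 for saline db/db. With single arrays left out, 2 to 6 rose. The count was 2 without db/db+TSF replicate 1 or 3 and 3 without db/m replicate 1 or db/db+TSF replicate 2. Sgk1, a kinase that keeps sodium channels at the membrane, measured 8.02, 7.88 and 7.53 in db/m, 8.39, 8.26 and 8.94 in saline db/db and 9.41, 8.92 and 9.33 in db/db+TSF (1.41 against db/m, SE 0.19, adjusted p = 0.00403). Tsc22d3, the glucocorticoid-induced leucine zipper, measured 6.04, 6.07 and 5.68 in db/m and 6.71, 6.46 and 6.70 in db/db+TSF (0.69, SE 0.14, adjusted p = 0.022), and did not pass without replicate 1 or 3 of either group (adjusted p up to 0.088). The metallothionein Mt1 (0.58), Sult1a1 (0.75) and Per1 were the others. Fkbp5, a widely used glucocorticoid marker, measured 5.79, 6.56 and 6.30 in db/m and 7.13, 6.73 and 6.88 in db/db+TSF without passing (0.70, SE 0.23, adjusted p = 0.137). Zbtb16, a zinc-finger transcription factor discussed in published work on this formula, measured 7.16, 7.53 and 7.84 in db/m, 6.73, 6.38 and 7.16 in saline db/db and 8.72, 7.74 and 8.13 in db/db+TSF. Treated arrays overlapped the db/m arrays, and the difference of 0.69 did not pass (adjusted p = 0.199).

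**Figure D3:**
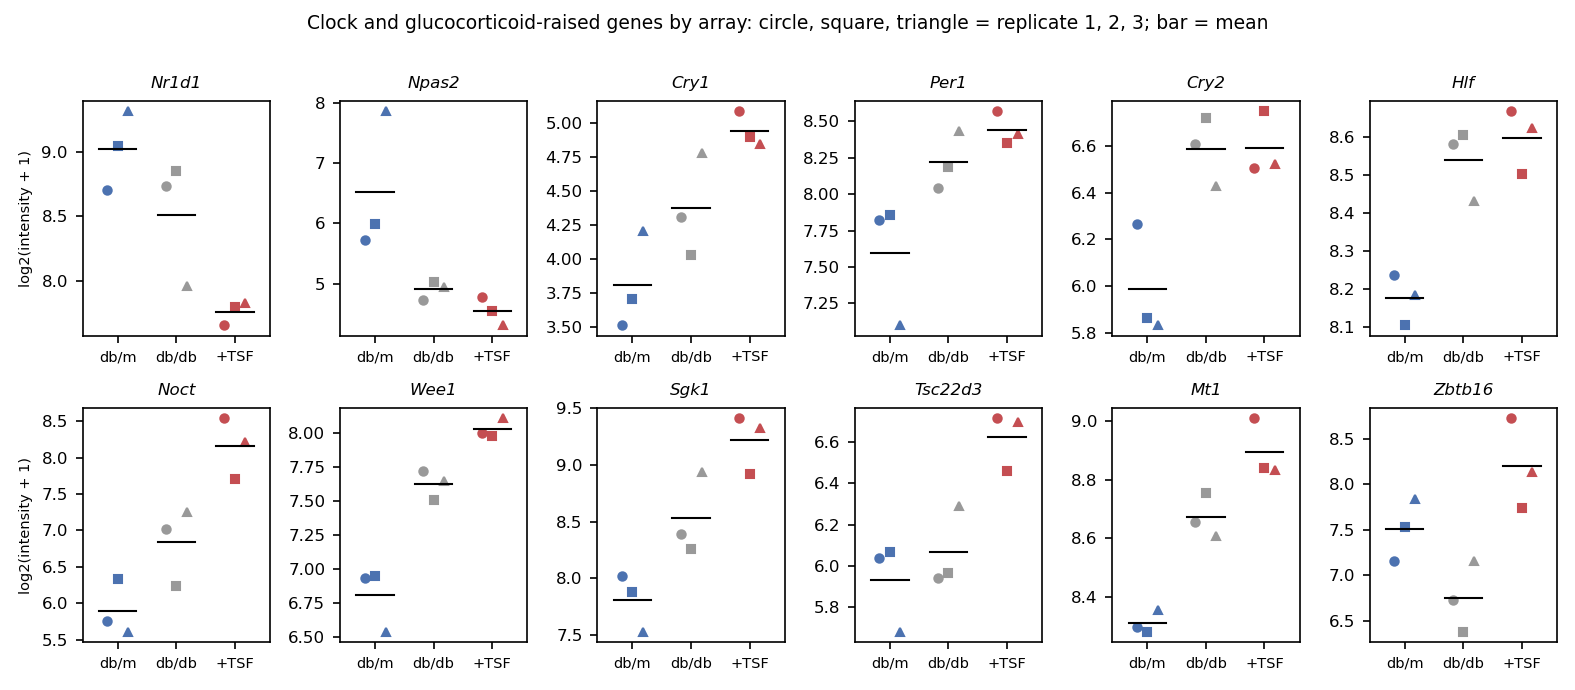
Intensity of 12 clock and glucocorticoid-raised genes on each of the 9 arrays, on the log2(intensity + 1) scale, with a separate vertical scale in each panel. Symbols mark replicates 1, 2 and 3 and bars the group means; Npas2 in db/m replicate 3 (triangle, 7.86) stands apart from the other controls, and the treated arrays of Zbtb16 overlap those of db/m.

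Promoters of 3 of these genes are shown because their sequence holds the motif named for the clock or the receptor. CACGTG is the E-box bound by the CLOCK and BMAL1 proteins, TTATGCAA a form of the D-box, and AGAACA facing TGTTCT across 3 bases the full palindrome to which glucocorticoid and androgen receptors bind; capitals mark the matches. Coordinates are those of GRCm38.p6 in RefSeq: chr11:69098775-69098948 on the plus strand for Per1, chr10:85185055-85185154 on the minus strand for Cry1 and chr10:21993670-21993749 on the plus strand for Sgk1.
Per1: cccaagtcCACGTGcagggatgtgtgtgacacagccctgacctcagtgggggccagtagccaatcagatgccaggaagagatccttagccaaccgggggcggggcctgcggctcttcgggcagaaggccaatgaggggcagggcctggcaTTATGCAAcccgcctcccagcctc
Cry1: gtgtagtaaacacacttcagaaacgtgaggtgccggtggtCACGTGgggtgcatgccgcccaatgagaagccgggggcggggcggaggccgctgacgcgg
Sgk1: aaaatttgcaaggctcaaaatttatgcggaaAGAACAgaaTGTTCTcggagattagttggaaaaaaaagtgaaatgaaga
The E-box lies 166 bases before the start of Per1 and 60 before that of Cry1, and the D-box form 24 bases before the start of Per1. The Sgk1 palindrome lies 189 bases before one of the starts listed for this gene. Over both strands, CACGTG was held by 8.13% of 209 windows of genes that rose, 7.19% of 334 of genes that fell and 8.95% of 17123 in all. TTATGCAA was held by 1.91%, 0.599% and 0.625%. The palindrome occurred in 1 window of genes that rose, that of Sgk1, and in 2 of the 17123. The E-box was no more frequent among the genes that changed than among all tested genes.

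Some macrophage and lymphocyte markers fell, in counts that depended on single arrays, and no neutrophil marker of 15 passed. Of 21 macrophage and dendritic cell markers, 7 fell, 17 lay below 0 and the median was -0.26. The receptor gene Csf1r, on which macrophages depend, measured 6.76, 6.89 and 6.99 in db/m and 6.48, 5.65 and 6.02 in db/db+TSF (-0.83, SE 0.18, adjusted p = 0.0301). Adgre1, which encodes the F4/80 antigen, went from 5.12, 4.93 and 4.75 to 4.31, 4.53 and 4.27 (-0.56). Tyrobp (-0.56), Mpeg1 (-0.52), Fcer1g (-0.47), Ctss (-0.45) and Cd68 (-0.42) fell as well. Arrays of both groups were separate for all 7, as for every gene called, and for 11 of the 21, beside 22.1% of all genes. The count of falls was 0 without db/m replicate 1, db/m replicate 2 or db/db+TSF replicate 3, and 2 without db/m replicate 3 or db/db+TSF replicate 2. The mean level of the 22 listed genes with a probe set, dim ones included, was 4.99 to 5.05 in db/m. It was 4.82 to 4.99 in saline db/db and 4.72 to 4.79 in db/db+TSF.

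Of 17 lymphocyte markers 4 fell, 16 lay below 0 and the median was -0.51, and 1 to 5 fell when single arrays were left out (1 without db/m replicate 2 or db/db+TSF replicate 2 or 3). The chemokine gene Ccl5, made by T and NK cells, measured 6.32, 6.45 and 6.63 in db/m and 5.52, 5.39 and 5.37 in db/db+TSF (-1.04, SE 0.14, adjusted p = 0.00344) and passed in all 9 leave-one-out fits. Cd3g (-0.92) and Cd3e (-0.58), of the T cell receptor complex, and the cytotoxic granule gene Nkg7 (-0.72) did not (adjusted p up to 0.0707, 0.169 and 0.151). The mean level of the 20 listed genes with a probe set, dim ones included, was 4.10 to 4.31 in db/m. It was 3.71 to 3.90 in saline db/db and 3.64 to 3.89 in db/db+TSF. In contrast, Cxcl13, the chemokine that draws B cells, rose from 5.67, 5.69 and 5.38 to 6.90, 7.08 and 6.31 (1.18, SE 0.18, adjusted p = 0.00704). Limma called 0 of 27 interferon and antigen presentation genes, of which 23 lay below 0 and 6 had an unadjusted p under 0.05, all lower; it called 0 of 25 inflammatory cytokine genes, with 1 higher and 2 lower at an unadjusted p under 0.05. It also called 0 of 15 neutrophil markers, with 1 lower at an unadjusted p under 0.05. The test without moderation called 0 in these 3 lists. Over all genes 17.2% had an unadjusted limma p under 0.05 in either direction. S100a8, a neutrophil gene, measured 2.26 to 2.37 in db/m and 2.16 to 2.54 in db/db+TSF.

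Complement and coagulation genes included a large fall. Pzp, a protease inhibitor of the macroglobulin family, measured 8.53, 8.53 and 8.47 in db/m and 4.84, 3.40 and 5.60 in db/db+TSF, a 14.9-fold fall (-3.90, SE 0.47, adjusted p = 0.00201). Treated replicate 2 was lowest, and the difference was -3.29 without it. Tissue factor, F3, fell from 7.70, 7.69 and 7.68 to 7.22, 7.02 and 7.18 (-0.55), with saline db/db at 7.71, 7.63 and 7.50, close to the lean level. The urokinase gene Plau (-0.89) and the receptor gene C3ar1 (-0.73) fell and the complement regulator Cd59a (0.63) rose. F3 did not pass without db/db+TSF replicate 2 (adjusted p = 0.0518), Cd59a without db/db+TSF replicate 3 (adjusted p = 0.0677), and Plau in 6 of 9 such fits (adjusted p up to 0.115). The Plau difference was -0.60 without db/db+TSF replicate 2.

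Injury, scarring and growth genes past the threshold are counted here beside 1.22% of all genes that rose and 1.92% that fell. Of 23 tubular injury markers Clu (0.60) rose and Plau and Itgb6 (-0.73) fell, none of which passed in every leave-one-out fit. Havcr1, the proximal tubule injury marker KIM-1, measured 3.81, 3.75 and 3.37 in db/m and 3.79, 3.43 and 3.75 in db/db+TSF (adjusted p = 0.983). Lcn2 measured 5.17, 4.87 and 5.28 in db/m and 6.25, 4.95 and 5.50 in db/db+TSF (adjusted p = 0.734). Of 39 matrix genes 1 passed, Thbs1 (0.46), and of 29 genes of TGF-beta and BMP signalling 1 passed, the receptor Tgfbr2 (-0.45), each lost in at least 6 of 9 leave-one-out fits (adjusted p up to 0.118 and 0.145). Of 42 cell cycle genes 34 lay above 0 with a median of 0.19 and 1 passed, Cdc20 (0.41), lost in 8 of 9 such fits. Spc25, a kinetochore gene not on that list, rose from 5.87, 5.22 and 5.47 to 6.40, 6.64 and 7.13 (1.20) and did not pass without db/m replicate 2 or 3 or db/db+TSF replicate 3 (adjusted p up to 0.0578). With an unadjusted limma p under 0.05, 10 of the 42 cell cycle genes were higher and 0 lower. Of the 39 matrix genes 3 were higher and 7 lower, of the 23 injury markers 4 and 4, and of the 29 signalling genes 2 and 3. Over all genes 17.2% had such a p in either direction.

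Several large changes fell outside these pathways. Chst11, a sulfotransferase that modifies chondroitin, fell from 9.11, 8.82 and 8.64 to 6.77, 6.51 and 7.03 (-2.08, SE 0.18, adjusted p = 0.000229), and saline db/db lay between at 7.82, 7.98 and 7.40. The Golgi GTPase gene Rab30 rose from 4.86, 4.73 and 4.64 to 6.01, 6.0 and 6.13 (1.30, SE 0.09, adjusted p = 6.59e-05), with saline db/db between at 5.45, 5.53 and 5.46. In both genes the 3 groups were separate on every array. Tchhl1 (1.22), a gene of the epidermal trichohyalin family, rose in all 9 leave-one-out fits, and Nkain1 (1.39), whose product binds the sodium pump, was lost in 4 of them (adjusted p up to 0.0813). The lysosomal sulfatase Galns fell by 0.97 and the hexosaminidase subunit Hexa rose by 0.64, both in all 9 such fits. Endothelial Apln (-0.90) and its receptor Aplnr (-1.01) both fell, and each was lost without db/m replicate 1 and in 1 or 2 other leave-one-out fits (adjusted p up to 0.0687). Foxo3 (0.62) was the 1 gene past the threshold of 31 in insulin and FOXO signalling, and Sdf2l1 (-0.79), an endoplasmic reticulum chaperone cofactor, the 1 of 25 in the unfolded protein response; neither passed in every leave-one-out fit (adjusted p up to 0.111 and 0.0649).

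The values of saline db/db place these differences. The test of db/db+TSF against db/db is also the test of whether both differences from db/m are unequal. It called 0 of 17740 genes with limma (smallest adjusted p 0.145) and 0 without moderation. For 2079 genes (11.7%) the difference of db/db+TSF from db/db had an unadjusted limma p under 0.05. Unadjusted 95% intervals of that difference were 0.70 to 1.93 for Noct, 0.36 to 0.76 for Rab30 and -1.35 to -0.57 for Chst11. For Slco1a1 the interval was -0.37 to 0.16 and for Alox15 -0.54 to 0.45, both of which include 0. Some genes past the threshold in saline db/db were not past it after TSF; they were named after their values were seen. Sprr1a, an injury-induced envelope gene, measured 3.95, 4.58 and 3.86 in db/m, 5.77, 5.64 and 5.91 in saline db/db and 5.26, 4.39 and 4.36 in db/db+TSF. Its difference from db/m was 1.64 in saline db/db (adjusted p = 0.0093) and 0.54 in db/db+TSF (adjusted p = 0.283), and the test between them gave -1.10 (95% interval -1.63 to -0.57, adjusted p = 0.237). The efflux pump Abcb1b differed from db/m by 1.25 in saline db/db (adjusted p = 0.0144) and 0.62 in db/db+TSF (adjusted p = 0.129). The steroid hydroxylase Cyp17a1 differed by 0.97 (adjusted p = 0.029) and 0.69 (adjusted p = 0.0619). Neither gene passed in the test of db/db+TSF against db/db. Lying on different sides of the threshold therefore does not show a difference between the treated and saline groups.

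**Figure D4:**
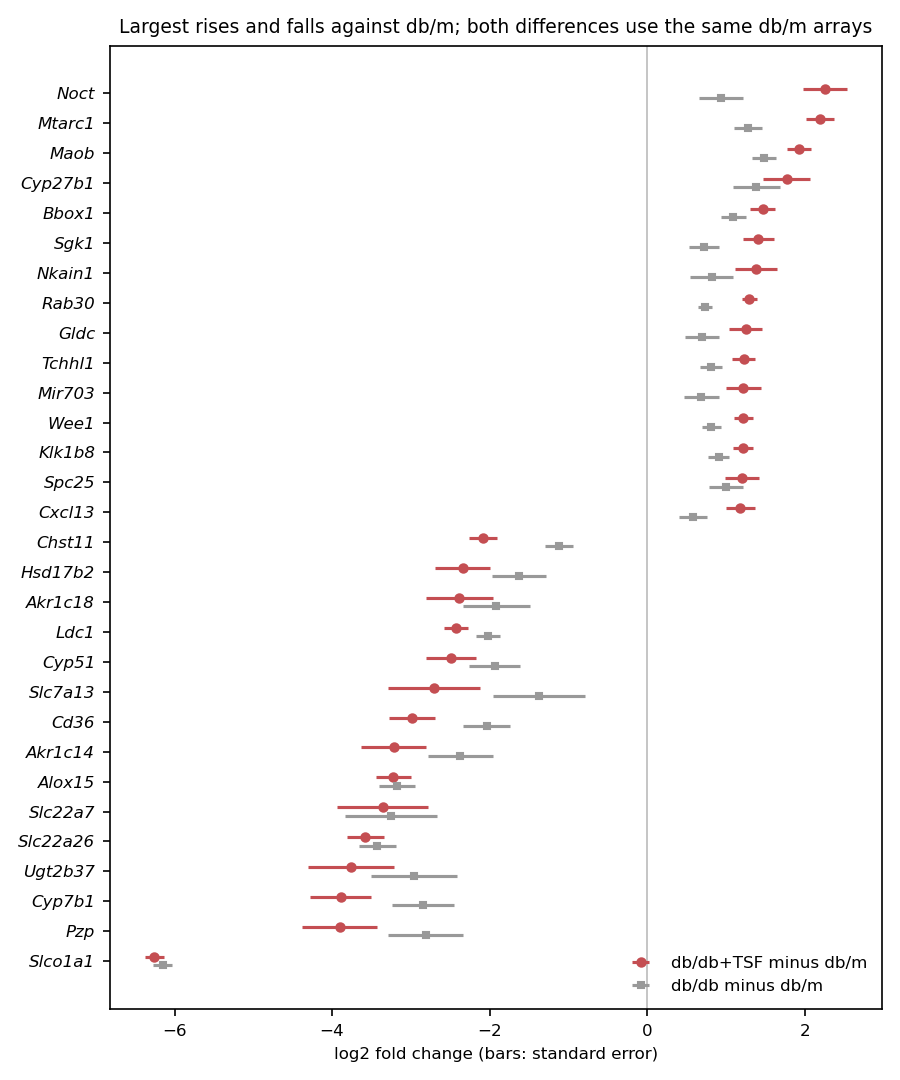
Log2 fold change from db/m of the 15 largest rises and 15 largest falls of db/db+TSF (circles), beside that of saline db/db (squares); bars are standard errors of the limma fit. The genes were chosen by the circles and both differences share the db/m arrays; Noct (2.26 beside 0.94) and Chst11 (-2.08 beside -1.12) are among the wider gaps, and Slco1a1 (-6.25 beside -6.15) and Alox15 (-3.22 beside -3.18) among the narrower.

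Genes near the mutated locus passed at a rate close to that of all genes. Within 10 Mb of Lepr on chromosome 4, 4 of 111 tested genes passed (3.6%, against 3.13% of all genes). These were Cyp2j8 (0.64), Acot11 (0.54) and Cyp2j6 (0.53), which rose, and Cyp2j13. Cyp2j13 measured 9.85, 10.31 and 10.06 in db/m and 7.98, 8.17 and 8.83 in db/db+TSF (SE 0.23, adjusted p = 0.00299), whereas Cyp2j8 and Cyp2j6 of the same cluster were dim or moderate and lost the call in 6 and 4 of the 9 leave-one-out fits. Acot11, a thioesterase gene, lost it in 5 of 9 (adjusted p up to 0.0721). These family members are similar in sequence, and how far their probes tell them apart was not tested.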

How the data were processed

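Kidney RNA of 9 samples was measured on Affymetrix arrays, 3 per group. The deposited values are intensity values on a linear scale, 1 per probe set and array, made by the authors with Affymetrix Expression Console and Transcriptome Analysis Console, per the submitters' processing notes; their background correction and normalization settings are not stated in the sources. Detection calls were not used, so dim genes may lie at background, and precision is limited by the number of arrays. No scan or hybridisation batch is given in the labels.

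Of 41345 probe sets, 23521 had 1 gene symbol in the platform annotation, 1814 several and 16010 none. The brightest probe set stood for each of 22180 genes (1082 had several). Intensities were taken as log2(value + 1), and genes averaging less than the 30th percentile over probe sets (2.65) were dropped, leaving 17740. A limma model (version 3.58.1, R 4.3.3) with a mean for each group was fitted on the 9 arrays with eBayes, and p-values were adjusted by Benjamini-Hochberg over all 17740 genes. Tests (two-sided) and SE come from this fit. It was tested on simulated data.

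The comparison and 47 gene lists from textbook knowledge (1098 of 1201 entries matched) were chosen with earlier results of these data known, and lists are described by counts and medians with no test. Named genes were the 15 largest rises and falls past the threshold with no overlap between groups and no clone name as symbol, up to 3 members of smallest p past the threshold per list (or 1 not passing), fixed genes, and calls near Lepr. Further members of the lists, and Slc34a1, Cpa1, Adipoq and other markers, were named after their values were seen. Replicate numbers were not used to pair the arrays in the main fit. Promoter and miRNA sequences are from RefSeq on GRCm38.p6; 13750 tested genes had a promoter window.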

Additional observations from a re-analysis of the deposited data

Results flagged for a closer look

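Probe sets that the platform annotation gives no single gene symbol stayed outside the comparison of genes. In a fit of all probe sets together, chosen after the data were seen, 36 of 10187 such probe sets were higher in db/db+TSF than in db/m and 21 were lower (0.56%, against 1.08% of 18754 probe sets with 1 symbol). The largest were probe set 17519673, which rose from a mean of 6.64 to 8.77, and probe set 17482310, which fell from 9.33 to 5.93. They are not named here.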

How the results depend on the processing

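The count of 556 genes (216 higher, 340 lower) was 73 without moderation (26 and 47), 128 at a threshold of 0.01 (52 and 76), 1012 at 0.10 (418 and 594) and 200 with all probe sets in one fit (80 and 120), an alternative chosen after seeing the data. With 1 array left out it ranged from 213 to 563 (83 to 218 higher, 126 to 345 lower). Other filters, scalings, pseudocounts, probe set rules and variance models gave 505 to 725, a fit of the 6 compared arrays alone gave 421 (170 and 251), and median scaling moved the share of calls that were higher from 38.8% to 29.3%. With the replicate block the count was 434, of which 395 were among the 556. Deviations from the group means correlated at -0.03, 0.15 and -0.08 between same-numbered arrays and at -0.16 to 0.16 between differently numbered ones. These few values cannot tell whether replicate numbers mark a shared batch. Havcr1, at 0.01 and not past the threshold, changed sign with median scaling (-0.037), quantile normalization (-0.036) and array weights (-0.054), and ranged from -0.13 to 0.12 with 1 array left out. Over all named genes and alternatives, 2158 values kept direction and side of the threshold, 324 lost the threshold, 29 gained it and 6 changed sign; the causes were not tested. Dim genes near the floor have understated folds, and with 3 arrays per group small differences cannot be resolved.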

Other observations

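Kallikrein genes were grouped after their values were seen. Of 12 tested members of the Klk1 family, which encode serine proteases of the distal nephron and salivary gland, 3 rose, beside 1.22% of all genes, none fell and the differences ran from -0.20 to 1.21. Klk1b8 measured 3.78, 3.89 and 4.14 in db/m and 5.13, 5.16 and 5.16 in db/db+TSF (1.21, SE 0.13, limma adjusted p = 0.000904) and passed in all 9 leave-one-out fits. Klk1b24 (0.96) and Klk1b5 (0.96) did not (adjusted p up to 0.0987 and 0.106). The tissue kallikrein Klk1, the bright member at 11.77 to 11.93 in db/m and 12.05 to 12.18 in db/db+TSF, did not pass (adjusted p = 0.156). These genes are near copies of each other, so the assignment of signal to one member is uncertain.

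Of 199 tested microRNA genes 4 rose and none fell, beside 1.22% of all genes that rose and 1.92% that fell. They were Mir703 (1.22), Mir181a-2 (0.79), Mir677 and Mir692-1, grouped after their values were seen. The arrays measure the precursor or its host transcript, not the mature strand. Mature sequences from RefSeq are shown for 3 of them, to let the seeds be compared, with the seed (bases 2 to 8) in capitals.
miR-703: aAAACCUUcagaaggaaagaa
miR-181a-5p: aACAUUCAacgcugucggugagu
miR-677-5p: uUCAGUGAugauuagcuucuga
Their seeds differ. Mir703 measured 4.84, 5.15 and 4.94 in db/m and 5.59, 6.51 and 6.50 in db/db+TSF and did not pass in 4 of 9 leave-one-out fits (adjusted p up to 0.0677). Mir181a-2 measured 3.17, 3.60 and 3.50 and then 4.15, 4.19 and 4.31, and did not pass without db/db+TSF replicate 3 (adjusted p = 0.0673).

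Other genes that fell, named after their values were seen and not as a group, were Hrg, the histidine-rich glycoprotein (-2.01), Azgp1, a zinc-binding glycoprotein (-1.76), and Serpina1c, an antitrypsin (-1.74). Of 8 tested members of the Serpina1 family 1 fell. Azgp1 measured 8.35, 8.70 and 8.95 in db/m and 6.76, 6.62 and 7.35 in db/db+TSF. Serpina1c was lowest in db/db+TSF replicate 2 (2.74 against 4.62 and 4.39) and did not pass in every leave-one-out fit (adjusted p up to 0.15).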
